A study of Homo sapiens with 4 samples.

Results

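The genes described here are 10 regulators of SMAD signaling, taken by name from the 58735 Ensembl gene identifiers in the deposited tables: the inhibitory SMADs SMAD7 and SMAD6, the decoy receptor BAMBI, the membrane protein PMEPA1, the nuclear repressors SKIL, SKI and TGIF1, the ubiquitin ligases SMURF1 and SMURF2, and the signal transducer SMAD3. They were measured in HCT116, a human colorectal carcinoma cell line known to carry an inactivating TGFBR2 mutation. HCT116 cells were transfected with a negative control siRNA (2 libraries) or with siRNA against KIF26B, a kinesin family member (2 libraries), and RNA was taken 48 h later, with no other treatment in the labels of either group. Which of the study's siRNAs against KIF26B went into which library is given neither by the labels nor by the study's methods. The column headers of the KIF26B siRNA libraries carry different knockdown numbers, so these libraries may hold different siRNAs, and their mean and SD may span both. The methods speak of biological replicates for the experiments in general, but no source used here says so of these libraries, and the spread between them may be technical. The 10 genes were chosen by function and selected on values that include their FPKM differences between the 2 groups in these same libraries. Their difference between the groups is therefore given as a description and carries no test.

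SMADs are the proteins that carry signals of the TGF-β and bone morphogenetic protein (BMP) receptors into the nucleus. SMAD3 is phosphorylated by TGF-β and activin type I receptors, joins SMAD4 and binds DNA. The pathway switches on its own brakes: SMAD7, SMAD6, BAMBI, PMEPA1 and SKIL are transcribed in response to SMADs, and their protein products then restrain the receptors or the SMADs. SMAD7 and SMAD6 occupy receptors and recruit SMURF1 and SMURF2, which tag receptors and SMADs with ubiquitin, while SKI, SKIL and TGIF1 hold SMAD complexes on DNA in a repressed state.

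Since SMAD7, SMAD6, SKIL and BAMBI are known as direct SMAD target genes and were all lower in both libraries labelled KIF26B siRNA, the DNA before their start sites is shown first. The sequences are from RefSeq (GRCh38.p14), 250 bases ending just before the start site, read 5′ to 3′ on the gene's strand. Capitals mark matches to GTCTAGAC, the palindromic SMAD binding element, in SMAD6 and to GGCGCC, a GC-rich SMAD element, in SKIL and BAMBI.
SMAD7 chr18:48950966-48951215, minus strand: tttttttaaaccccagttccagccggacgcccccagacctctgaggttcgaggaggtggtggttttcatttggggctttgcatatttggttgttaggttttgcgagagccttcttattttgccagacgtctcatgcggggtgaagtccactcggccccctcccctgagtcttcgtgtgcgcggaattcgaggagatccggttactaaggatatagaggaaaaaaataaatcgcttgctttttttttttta
SMAD6 chr15:66701986-66702235, plus strand: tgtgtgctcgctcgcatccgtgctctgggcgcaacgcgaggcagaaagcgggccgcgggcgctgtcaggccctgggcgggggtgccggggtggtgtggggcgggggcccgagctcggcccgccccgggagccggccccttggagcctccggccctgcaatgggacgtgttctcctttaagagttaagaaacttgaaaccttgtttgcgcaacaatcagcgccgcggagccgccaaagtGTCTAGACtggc
SKIL chr3:170357465-170357714, plus strand: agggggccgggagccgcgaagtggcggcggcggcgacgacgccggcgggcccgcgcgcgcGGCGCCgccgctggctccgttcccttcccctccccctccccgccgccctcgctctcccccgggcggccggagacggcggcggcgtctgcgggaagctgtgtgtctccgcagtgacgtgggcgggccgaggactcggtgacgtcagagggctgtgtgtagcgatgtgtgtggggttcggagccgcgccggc
BAMBI chr10:28677271-28677520, plus strand: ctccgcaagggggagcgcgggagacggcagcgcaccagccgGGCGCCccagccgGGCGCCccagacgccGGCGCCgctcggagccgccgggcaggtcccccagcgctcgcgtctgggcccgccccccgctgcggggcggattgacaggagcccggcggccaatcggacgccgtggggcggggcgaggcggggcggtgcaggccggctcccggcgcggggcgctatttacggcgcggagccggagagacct

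The RefSeq promoter table held 24 windows, from 250 bases before to 50 after a start site, for 9 of the 10 genes, and SKI was not among them. GTCTAGAC, which reads the same on both strands, was found in 71 of all 35116 windows (0.202%), and SMAD6 was the 1 of these 9 genes that held it, beginning at base −12 counted from the start site. GGCGCC, also the same on both strands, was found in 19.2% of all windows. It was in 4 of the 24 windows, those of SKIL and BAMBI and 1 each of SMAD3 and PMEPA1. BAMBI held it 3 times, beginning at −209, −196 and −181, and SKIL once, at −190. CAGACA, the core of the CAGA box searched on both strands, was found in 16.9% of all windows. It was in 6 of the 24 windows, which belong to SMAD3, SMURF2, TGIF1 and PMEPA1. None of these 3 words was found in the 3 windows of SMAD7, and bases outside the windows were not searched. GGGCGG, the SP1 site searched on both strands, was found in 45.0% of all windows. It was in 14 of the 24 windows, which belong to 8 of the 9 genes, all but SMAD7. TGANTCA, the AP-1 site (N is any base), was found in 7.71% of all windows and in 4 of the 24, of SMAD3 and TGIF1. GGAATG, the TEAD site, was found in 14.0% of all windows and in 2 of the 24, both of TGIF1. These 2 windows overlap, so this is 1 site counted in each, and they share a match to GGGCGG as well. Over the whole window of 300 bases around the start sites shown, GC content was 48.3% for SMAD7, 68% for SMAD6, 79% for SKIL and 80% for BAMBI. The other windows of SMAD7 were at 57% and 49.3%, and the median of all windows was 58.7%. These matches describe letters in short windows and say nothing of binding in HCT116 cells.

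The values are FPKM, fragments scaled to exon length and library depth. Levels can thus be compared between genes and between libraries only as far as length and depth go. The main comparison applied no further scaling. The divisors by which the authors scaled the libraries were estimated from genes with 1 exon. They were 19629581 and 24673739 fragments for control siRNA 1 and 2 and 21363618 and 18068934 for KIF26B siRNA 1 and 2. Whole reads were recovered from the values for 99.6% of the 34638 genes above 0. They summed to 21002092 and 26571113 in the control libraries and to 23022898 and 20484751 in the others. These sums exceed the divisors, so some recovered reads may be too many and intervals from them too narrow. The targeted gene did not separate the groups: KIF26B (ENSG00000162849, chr1:245154985-245709432 of GRCh38.p14) was at 0.110 and 0.205 FPKM in the control libraries and at 0.140 and 0.0307 FPKM in the libraries labelled KIF26B siRNA 1 and 2, from 31, 73, 43 and 8 reads. The first of the libraries labelled KIF26B siRNA thus lay between the controls, and every direction given here rests on the labels. On the recovered reads with limma-voom, the group difference of KIF26B was −1.13, against −0.09 on the log2(FPKM + 1) scale. The KIF26B rate of the first was 0.857 of that in both controls together (95% interval 0.586 to 1.23), and that of the second was 0.189 (0.0793 to 0.386). These intervals and those that follow are exact, come from the recovered reads and cover counting error only. The 10 epithelial markers summed to 1776 and 1792 FPKM in the control libraries and 1635 and 1715 FPKM in the others, with VIL1 at 0.0368 FPKM or less and CEACAM5 at 0.0152 FPKM or less. Of the 8 epithelial markers tested, 4 were lower in both libraries labelled KIF26B siRNA (KRT8, KRT18, CDH1 and CLDN3), 1 was higher (KRT19) and 3 overlapped. KRT8 had a mean of 483 FPKM in the control libraries and 359 FPKM in the others, and KRT19 of 852 and 936 FPKM. The 8 fibroblast markers summed to 4.93 to 8.82 FPKM, nearly all COL1A1, the 8 immune markers to 0.413 to 0.572 FPKM, and the 3 endothelial markers found to 0.114 to 0.402 FPKM. Mitochondrial genes held 6.38% and 6.40% of recovered reads in the control libraries and 8.98% and 7.21% in the others. The part of these differences in the results was not tested.

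Of the 10 genes, 8 were lower in both libraries labelled KIF26B siRNA than in both control libraries, TGIF1 was higher, and SKI overlapped. Among the 14523 genes tested, those averaging 1 FPKM or more over the 4 libraries, 27.8% were lower and 24.9% were higher in this way. PMEPA1 lay under that minimum, so 9 of the 10 genes were tested. SMAD7 was at 21.5% of its control mean, PMEPA1 at 40.9% and SMAD6 and SKIL at 41.4%, followed by BAMBI at 69.2%, SMAD3 at 70.3%, SMURF2 at 76.3% and SMURF1 at 93.8%. TGIF1 was at 149% of its control mean. As this is RNA from bulk cultures, fewer cells that express a gene and less RNA per cell cannot be told apart.

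SMAD7 (ENSG00000101665, chr18:48919853-48950965), the inhibitory SMAD that acts on both TGF-β and BMP receptors, had the widest difference. It was measured at 4.69 and 5.04 FPKM in the control libraries and at 0.725 and 1.36 FPKM in the libraries labelled KIF26B siRNA 1 and 2, from 463, 626, 78 and 124 reads. Both control values lay far above both others, and the lowest level was in the library labelled KIF26B siRNA 1. The mean was 4.86 ± 0.25 FPKM (SD, n = 2) against 1.04 ± 0.45 FPKM (SD, n = 2), or 21.5% of control, a difference of −1.54 on the log2(FPKM + 1) scale (SE 0.20 from limma). That scale understates differences of genes near or below 1 FPKM, and on the recovered reads with limma-voom the difference was −2.31. Relative to both controls together, the rate was 0.149 (95% interval 0.117 to 0.187) in the first and 0.279 (0.230 to 0.336) in the second of the libraries labelled KIF26B siRNA. SMAD7 was thus 1.88 times higher in the second than in the first (1.40 to 2.53), whereas the control libraries differed by 1.08 times (0.952 to 1.22).

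SMAD6 (ENSG00000137834, chr15:66702236-66782849), which acts mainly on BMP signaling, was less abundant than SMAD7 in the control libraries. Its levels were 2.35 and 2.21 FPKM in the control libraries and 1.20 and 0.685 FPKM in the libraries labelled KIF26B siRNA 1 and 2, from 395, 466, 220 and 106 reads. The groups did not overlap, but here the lower value was in the library labelled KIF26B siRNA 2. The means of 2.28 ± 0.10 and 0.944 ± 0.366 FPKM (SD, n = 2 each) put it at 41.4% of control, with a difference of −0.77 on the log2(FPKM + 1) scale (SE 0.18) and of −1.30 with limma-voom. The rates were 0.530 (95% interval 0.455 to 0.615) and 0.302 (0.244 to 0.370) of the controls, and the second library held 0.570 times the rate of the first (0.447 to 0.721). SMAD7 and SMAD6 therefore differed between the libraries labelled KIF26B siRNA in opposite directions, each beyond counting error.

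BAMBI (ENSG00000095739, chr10:28677521-28682932) encodes a membrane protein that resembles a type I receptor but lacks the kinase, and it competes for ligand and receptor. It was measured at 6.76 and 5.46 FPKM in the control libraries and at 4.73 and 3.73 FPKM in the libraries labelled KIF26B siRNA. The groups did not overlap, although the gap from the lower control to the higher of the others was smaller than the spread between the controls. The means were 6.11 ± 0.92 and 4.23 ± 0.71 FPKM (SD, n = 2 each), 69.2% of control, and the difference was −0.44 on the log2(FPKM + 1) scale (SE 0.17). BAMBI was the 1 gene of the 10 whose control libraries differed beyond counting error, control siRNA 1 being the higher. The rates relative to control were 0.784 (95% interval 0.672 to 0.913) and 0.618 (0.515 to 0.738).

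PMEPA1 (ENSG00000124225, chr20:57648396-57711472), a membrane protein that binds receptor SMADs and promotes receptor breakdown, was the least abundant of the 10 genes. Its 0.435 and 0.505 FPKM in the control libraries and 0.217 and 0.167 FPKM in the libraries labelled KIF26B siRNA rested on 48, 70, 26 and 17 reads. The groups did not overlap, and the libraries labelled KIF26B siRNA could not be told apart from each other by counting error, with a ratio of 0.773 (95% interval 0.394 to 1.48). The rates were 0.457 (0.287 to 0.703) and 0.353 (0.199 to 0.590) of the controls. The difference of −0.30 on the log2(FPKM + 1) scale became −1.28 with limma-voom, which adds no pseudocount in FPKM.

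**Figure D1:**
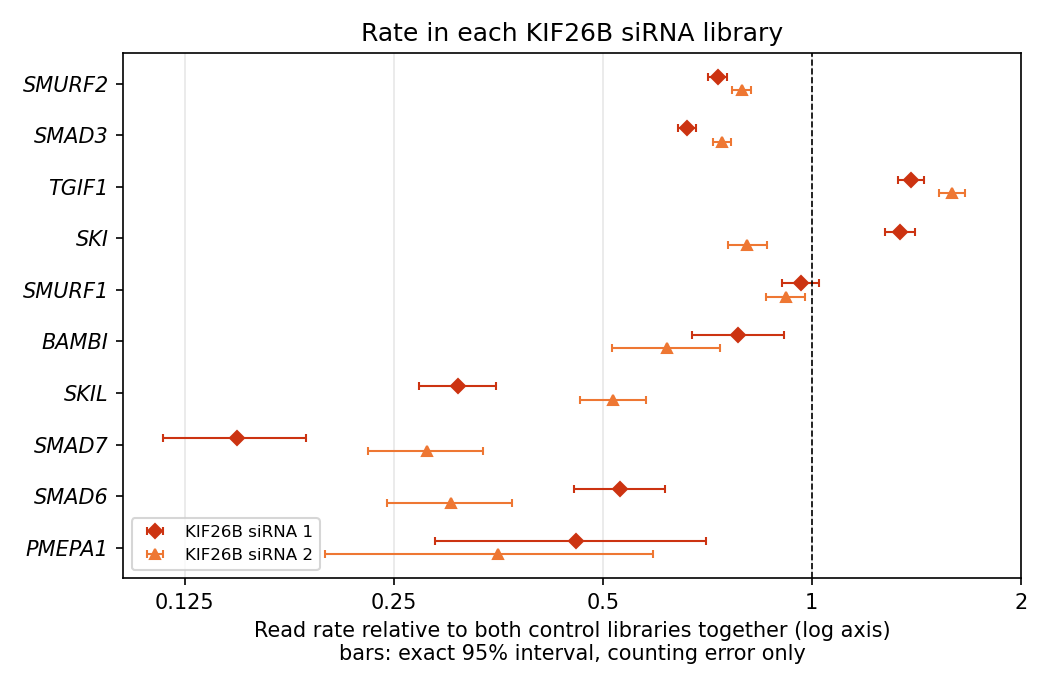
Read rate of each gene in each library labelled KIF26B siRNA relative to both control libraries together (log axis), with exact 95% intervals that cover counting error only; the dashed line marks equal rates. SMAD7 lies farthest to the left at 0.149 and 0.279, SKI has 1 library on each side of the line, and the intervals of TGIF1 lie to its right.

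Among the nuclear repressors, SKIL and its paralog SKI parted. SKIL (ENSG00000136603, chr3:170357715-170396849) encodes SnoN, which binds SMAD complexes and is degraded when TGF-β signaling begins. It was measured at 5.37 and 5.46 FPKM in the control libraries and at 1.68 and 2.81 FPKM in the libraries labelled KIF26B siRNA 1 and 2, from 821, 1049, 279 and 395 reads. The controls were almost equal and both others lay well below them. The means of 5.42 ± 0.063 and 2.24 ± 0.80 FPKM (SD, n = 2 each) put SKIL at 41.4% of control, a difference of −1.01 on the log2(FPKM + 1) scale (SE 0.21). SMAD7 and SKIL were the 2 genes of the 10 with a difference beyond −1, as were 0.757% of all genes tested. That count depends on the setting: it was 4 with limma-voom, which adds SMAD6 and PMEPA1, and 3 when 0.1 was added in place of 1. The share of 0.757% belongs to the log2(FPKM + 1) scale. No share of all genes stands beside the counts of 4 and 3, so they cannot be read as particular to the 10 genes. SKIL lay close to the threshold and fell short of it with median-of-ratios scaling (−0.993). It also fell short without control siRNA replicate 2 (−0.997) and without KIF26B siRNA replicate 1 (−0.75). As for SMAD7, the level was lower in the first of the libraries labelled KIF26B siRNA, with a ratio of the second to the first of 1.67 (95% interval 1.43 to 1.96).

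SKI (ENSG00000157933, chr1:2228319-2310213), which recruits histone deacetylase complexes to SMADs, went opposite ways. It was at 14.7 and 14.0 FPKM in the control libraries, at 19.2 FPKM in the library labelled KIF26B siRNA 1 and at 11.5 FPKM in the library labelled KIF26B siRNA 2. One library was above and the other below both controls, so the near-equal means of 14.3 ± 0.51 and 15.3 ± 5.38 FPKM (SD, n = 2 each) describe neither. The rates were 1.34 (95% interval 1.27 to 1.41) and 0.808 (0.757 to 0.861) of the controls. The difference of 0.05 on the log2(FPKM + 1) scale (SE 0.27) turned to −0.29 without KIF26B siRNA replicate 1 and was 0.39 without KIF26B siRNA replicate 2.

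TGIF1 (ENSG00000177426, chr18:3412009-3459978), a homeodomain protein that represses SMAD2 and SMAD3 target genes, was the 1 gene of the 10 that was higher. Its levels were 15.4 and 14.7 FPKM in the control libraries and 20.8 and 23.9 FPKM in the libraries labelled KIF26B siRNA. Both values lay above both controls by more than the spread within either group. The means of 15.04 ± 0.52 and 22.3 ± 2.14 FPKM (SD, n = 2 each) correspond to a difference of 0.54 on the log2(FPKM + 1) scale (SE 0.13). The rates were 1.39 (95% interval 1.33 to 1.45) and 1.59 (1.52 to 1.66) of the controls.

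The ubiquitin ligases were far from alike in level. SMURF2 (ENSG00000108854, chr17:64542282-64662307), which partners SMAD7 at the TGF-β receptor, was the most abundant of the 10 genes, at 48.5 and 49.99 FPKM in the control libraries and 36.1 and 39.1 FPKM in the libraries labelled KIF26B siRNA. The groups did not overlap, and the means of 49.2 ± 1.05 and 37.6 ± 2.10 FPKM (SD, n = 2 each) put it at 76.3% of control, a difference of −0.38 on the log2(FPKM + 1) scale (SE 0.12). SMURF1 (ENSG00000198742, chr7:99027440-99144108), which acts on the BMP SMADs SMAD1 and SMAD5, was at 12.3 and 11.8 FPKM in the control libraries and at 11.6 and 11.0 FPKM in the others. Both lower values lay just under the lower control, at 93.8% of control on average, with a difference of −0.08 (SE 0.11). The rate of SMURF1 in the first of the libraries labelled KIF26B siRNA was 0.964 of the controls, with a 95% interval of 0.907 to 1.02. With each library rescaled by the median of its ratios to the geometric mean of all libraries, its groups overlapped.

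SMAD3 (ENSG00000166949, chr15:67065602-67195169) is a transducer of TGF-β and activin signals. Its levels were 43.95 and 44.4 FPKM in the control libraries and 29.2 and 32.8 FPKM in the libraries labelled KIF26B siRNA. They rest on 7862, 9979, 5689 and 5406 reads, more in each library than for any other of the 10 genes. The groups lay apart by far more than the spread within either, with means of 44.2 ± 0.30 and 31.0 ± 2.55 FPKM (SD, n = 2 each), 70.3% of control, and a difference of −0.50 on the log2(FPKM + 1) scale (SE 0.12). The rates were 0.661 (95% interval 0.642 to 0.681) and 0.743 (0.721 to 0.766) of the controls.

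In the control libraries the order of level, in FPKM, was SMURF2, SMAD3, TGIF1, SKI, SMURF1, BAMBI, SKIL, SMAD7, SMAD6 and PMEPA1. SMURF2 and SMAD3 stood at the 95.1 and 94.3 percentiles of the genes tested by control mean, SMAD7 at 45.4 and SMAD6 at 23.9. TGIF1 and SKI did not differ beyond their spread, since the lower TGIF1 control of 14.67 FPKM lay under the higher SKI control of 14.70 FPKM. BAMBI and SKIL were apart by the narrowest margin, 5.465 against 5.463 FPKM. In the libraries labelled KIF26B siRNA, SKI and SMURF1 overlapped, as did SMAD7 and SMAD6.

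Replicate agreement differed between the groups. Between the control libraries, no gene of the 10 differed by more than 1.24 times. Between the libraries labelled KIF26B siRNA the difference ran from 1.05 to 1.88 times. It was beyond counting error for 8 genes, the others being SMURF1 and PMEPA1. No share of all genes tested stands beside that count, so it cannot be read as particular to the 10 genes. With many reads even a small difference passes counting error, as for SMURF2 at 1.08 times (95% interval 1.04 to 1.13). SMAD7, SKIL, SMURF2, SMAD3 and TGIF1 were higher in the second of these libraries, and SMAD6, SKI, BAMBI, SMURF1 and PMEPA1 were higher in the first. Over all 10 genes, the median difference from the control mean was nonetheless −0.37 on the log2(FPKM + 1) scale in each of them. The median of the group differences was −0.41, beside −0.01 for all genes tested.

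Ratios taken within a library do not depend on how the library was scaled. SMAD7 was 1.99 and 2.29 times as abundant as SMAD6 in the control libraries, and 0.603 and 1.99 times in the libraries labelled KIF26B siRNA 1 and 2. Only the first of these stood clear of the controls. The ratio of SKIL to SKI was 0.366 and 0.391 in the control libraries against 0.0876 and 0.243 in the others. Both were well below the controls. The ratio of SMURF2 to SMURF1 was 3.94 and 4.23 against 3.11 and 3.54, also without overlap. SMAD3 was 15.02 and 14.7 times as abundant as SMAD2, the other TGF-β transducer, in the control libraries and 9.17 and 10.9 times in the others. SMAD2 itself was at 2.93 and 3.01 FPKM against 3.19 and 3.01 FPKM, so the lower ratio came with lower SMAD3. The ratio of TGIF1 to TGIF2 was 2.68 and 2.63 against 2.91 and 4.76. SMAD7 relative to SMAD3, the brake against the transducer, was 0.107 and 0.114 against 0.0248 and 0.0415, lower in both libraries labelled KIF26B siRNA.

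**Figure D2:**
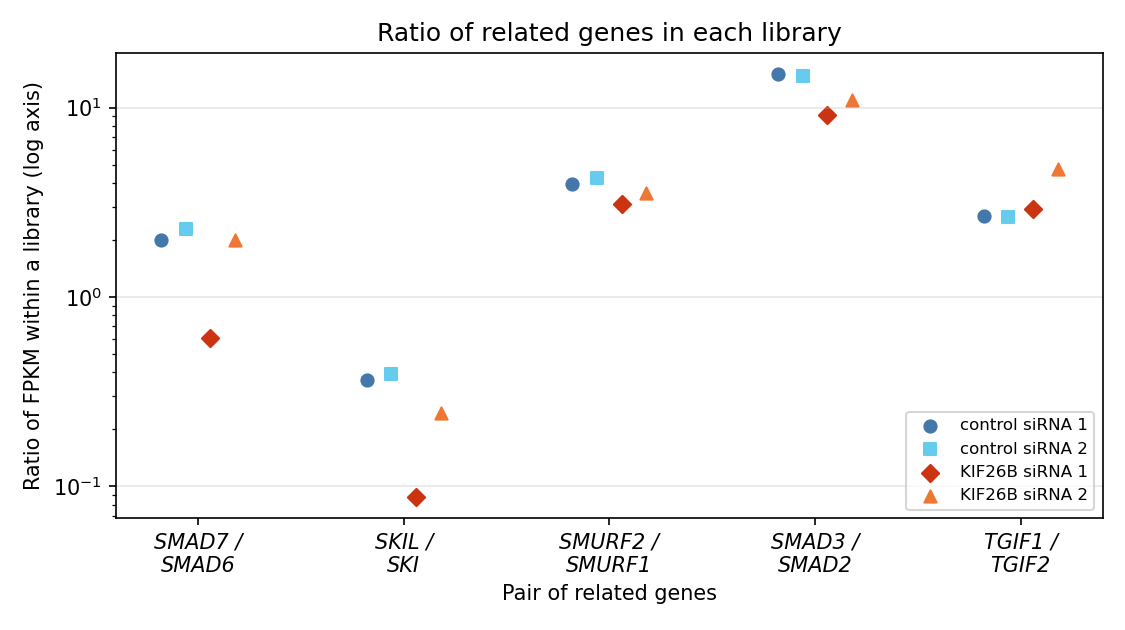
Ratio of FPKM within each of the 4 libraries (log axis) for 5 pairs of related genes, 1 point per library. SMAD7 over SMAD6 lies well under the controls in the first KIF26B siRNA library (0.603) and only just under them in the second (1.99), while SKIL over SKI, SMURF2 over SMURF1 and SMAD3 over SMAD2 are lower in both.

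SMAD3, SMURF1, SMURF2 and PMEPA1 share exon bases with a gene on the opposite strand in the annotation used, and the use of strand in counting is not stated, so reads there cannot be told apart. CEP95, opposite SMURF2, was at 11.99 and 11.4 FPKM in the control libraries and 10.3 and 14.6 FPKM in the others. TRRAP, opposite SMURF1, was at 11.9 and 11.0 FPKM against 9.82 and 7.80 FPKM, lower in both libraries labelled KIF26B siRNA. The gene opposite SMAD3 (ENSG00000259347) was at 1.66 to 2.35 FPKM and NKILA, opposite PMEPA1, at 0.0213 FPKM or less.

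The rest of the pathway was read from 6 lists of 91 genes in all, of which 72 were tested and TGIF2 stood in 2 lists. At an adjusted p below 0.05 (limma with Benjamini-Hochberg adjustment over all 14523 genes), 0 genes of any kind passed, or 0%, the smallest adjusted p being 0.242. Without adjustment, 2385 genes had a p below 0.05, and limma-voom on the recovered reads also called 0 genes after adjustment. An exact two-sided permutation test of 2 libraries against 2 cannot go below p = 0.333. At an unadjusted p below 0.05 with a log2 difference beyond 1, 88 genes (0.606%) were lower and 118 (0.813%) were higher. Of the 72 pathway genes, 36 were lower in both libraries labelled KIF26B siRNA, 9 were higher and 27 overlapped, beside 27.8% lower and 24.9% higher among all genes tested, and their median difference was −0.11, beside −0.01. The counts of the single lists that follow are to be read against the same shares.

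The transducers other than SMAD3 showed 2 of 4 tested genes lower and 0 higher in both libraries, with a median difference of −0.13. SMAD5, a BMP transducer, was at 13.02 and 12.4 FPKM in the control libraries and 6.66 and 11.4 FPKM in the others, and SMAD4, the shared partner, at 6.27 and 6.67 against 5.11 and 5.42 FPKM. Of 12 receptors, 10 were tested, 6 were lower and 1 was higher (27.8% and 24.9% of all genes tested), with a median of −0.24. TGFBR2, the type II TGF-β receptor, was at 15.8 and 16.2 FPKM against 19.2 and 12.95 FPKM, and ACVR1B, an activin type I receptor, at 9.72 and 10.9 against 10.25 and 6.33 FPKM. Both receptors overlapped between the groups.

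The other co-repressors gave 5 lower and 2 higher genes of 11 tested, with a median of −0.08. HDAC1, a histone deacetylase that SKI and TGIF1 recruit, was at 54.4 and 54.9 FPKM against 68.6 and 56.4 FPKM, higher in both libraries as was TGIF1. Of the other ubiquitin enzymes of the pathway, all 16 were tested, 7 were lower, 0 were higher and 9 overlapped, beside the same 27.8% and 24.9%, with a median of −0.06. RNF11, which binds SMURF2, was at 27.5 and 27.8 FPKM against 33.2 and 22.3 FPKM, and the ligase ITCH, from the same family as the SMURFs, at 21.1 and 19.9 against 19.2 and 17.9 FPKM. Of other pathway inhibitors, 9 of 15 were tested, 6 were lower and 1 was higher, with a median of −0.31. FKBP1A, which keeps type I receptors silent, was at 113 and 115 FPKM against 141 and 112 FPKM, and STRAP, which stabilizes SMAD7 at the receptor, at 62.8 and 62.6 against 66.2 and 69.8 FPKM.

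SMAD target genes held the 4 pathway genes past the unadjusted thresholds. Of 28 listed, 23 were tested, 10 were lower and 5 were higher, where 27.8% and 24.9% of all genes tested were so, with a median of −0.19. ID2, an inhibitor of basic helix-loop-helix factors and a BMP target, was at 131 and 127 FPKM in the control libraries and 41.0 and 25.5 FPKM in the others, a difference of −1.96 (SE 0.26). CCN2, a matrix protein driven by both SMADs and YAP, was at 5.21 and 5.18 FPKM against 1.02 and 1.04 FPKM, a difference of −1.61 (SE 0.11). THBS1, which releases TGF-β from its latent form, was at 4.46 and 4.58 against 1.31 and 1.499 FPKM, a difference of −1.20 (SE 0.11). TSC22D1, a TGF-β-induced leucine zipper factor, was at 22.2 and 21.1 against 48.5 and 66.4 FPKM, a difference of 1.35 (SE 0.19). Each of the 4 had an adjusted p of 0.242 in limma, so none passed. The targets of highest control level, ID1 at 316 and 327 against 232 and 270 FPKM and CDKN1A, a cell cycle inhibitor, at 206 and 211 against 268 and 318 FPKM, stood on opposite sides of control.

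Genes with a pattern over the 4 libraries most like that of SMAD7, SKIL and PMEPA1 were found by the Euclidean distance between their differences from the control mean on the log2(FPKM + 1) scale, among the genes tested. Nearest to SMAD7 were HSPE1P2 (distance 0.310), CCN2 (0.333) and CCND1 (0.376). CCND1, which encodes cyclin D1, was at 358 and 361 FPKM in the control libraries and 107 and 187 FPKM in the others, so it was lowest in the library where SMAD7 was lowest. HSPE1P2 is a pseudogene that may share reads with its parent gene, and its value is uncertain. Nearest to SKIL were CENPE (0.0592), E2F7 (0.0756) and ENSG00000232499 (0.0869). CENPE, a mitotic kinesin, was at 7.74 and 8.20 against 2.81 and 4.46 FPKM, and E2F7, a cell cycle repressor, at 11.0 and 11.2 against 4.25 and 6.44 FPKM. Both were lower in the first than in the second of the libraries labelled KIF26B siRNA, as SKIL was. Nearest to PMEPA1 were CAPN5 (0.0199), WDR47 (0.0245) and ABCD3 (0.0254), which were at 4.93 to 11.9 FPKM, so the likeness is of differences on the log2(FPKM + 1) scale and not of folds. With 4 libraries such distances rest on few values and are descriptions.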

How the data were processed

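The labels place the 4 RNA libraries of HCT116 cells, all at 48 h, in the control siRNA group (2) and the KIF26B siRNA group (2). The authors deposited FPKM per gene and library, a unit that no source names and that was inferred from the steps between values. The submitters' processing notes name HISAT2 2.0.5, featureCounts 1.5.0-p3 and hg38, whereas the study's methods name hg19. Identifiers were used as given, with symbols from GENCODE names of GRCh37 for 56513 of 58735. Coordinates and promoter sequences are RefSeq's for GRCh38.p14. Whole reads were recovered by finding, for each gene, a length at which all libraries gave whole numbers within 0.001 reads. Recovery depends on the annotated length where several lengths serve, so rates were taken against the authors' divisors and not against recovered totals.

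Groups were compared with limma 3.58.1 (R 4.3.3) on log2(FPKM + 1), over the 14523 genes averaging 1 FPKM or more, with Benjamini-Hochberg adjustment and no covariate. PMEPA1 and KIF26B, below that minimum, were read from the fit without a filter. The functions were tested on simulated reads with the same spread in both groups. That test does not show how often changes would be called in these libraries. Intervals are exact conditional binomial intervals at 95%. Ratios and motifs were computed with Python 3.11.15, numpy 2.4.6, pandas 2.3.3 and scipy 1.17.1, and plots with matplotlib 3.10.9.

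The 10 genes, the pathway lists, the motifs and the paralog pairs were chosen with earlier results of these data known. Named beside the 10 genes are, in each list, genes past an unadjusted p of 0.05 with a difference beyond 1, the 2 of highest control level (1 gene is not reported here), and the 3 nearest patterns of SMAD7, SKIL and PMEPA1. SMAD2, TGIF2, the genes on opposite strands and the markers are named as partners or checks. Alternatives were a replicate block, a pseudocount of 0.1, other filters, median-of-ratios scaling, limma-voom on recovered reads and leaving out each library. P-values measure only the spread between these libraries.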

Additional observations from a re-analysis of the deposited data

How the results depend on the processing

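The difference of each of the 10 genes was recomputed under the 7 alternatives that can move it, and 69 of the 70 values kept their sign. The block and both filters on low values leave it as it is by construction. The exception was SKI, at −0.29 without KIF26B siRNA replicate 1. The number of the 10 genes lower in both libraries labelled KIF26B siRNA was 8, and 7 with median-of-ratios scaling. The block, filters, pseudocount and limma-voom leave the order of the libraries, and so this count, as it is by construction. Leaving out 1 library can only keep or raise it. It was 9 without KIF26B siRNA replicate 1 and 8 without any other library. Their median difference of −0.41 was −0.52 when 0.1 was added in place of 1, −0.51 in limma-voom and −0.40 with median-of-ratios scaling, and ran from −0.43 to −0.37 when 1 library was left out. The number of other pathway genes lower in both, 36 of the 72 tested, was 34 with median-of-ratios scaling. Without a filter it was 44, since genes under the minimum were then counted too. It ran from 38 to 50 when 1 library was left out, which makes it easier for the groups of any gene to lie apart. No share of all genes under these alternatives stands beside these counts or those of the 10 genes.

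Over all genes tested, 88 lower and 118 higher genes at the unadjusted thresholds became 203 and 217 when 0.1 was added in place of 1, 203 and 197 in limma-voom, and 52 and 69 with at least 1 FPKM required in every library, where fewer genes were tested. Leaving out 1 library gave 132 to 230 lower and 155 to 333 higher genes. The lower count was 139 without control siRNA replicate 1, 194 without KIF26B siRNA replicate 1 and 230 without KIF26B siRNA replicate 2, and the higher count was 333 without KIF26B siRNA replicate 1. Calls after adjustment ran from 0 to 2254, the latter without KIF26B siRNA replicate 1, where the lone library is assumed to vary like the controls. The cause was not tested. KIF26B differed by −0.09 (unadjusted p = 0.388 in limma without the filter), by −0.52 when 0.1 was added in place of 1, by −1.13 in limma-voom and by −0.17 to −0.02 when 1 library was left out, and passed under no alternative.

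Same-numbered libraries did not deviate together (correlation −0.003 across 14523 genes). With 2 libraries per group, this cannot decide whether they share more than a number. A block for that number gave 98 lower and 135 higher genes without adjustment and 0 after it. Depth limits PMEPA1, with 17 to 70 reads a library, and KIF26B, with 8 to 73 reads.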
